A study of Saccharomyces cerevisiae with 14 samples.

Results

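The Ypt Rab GTPases of budding yeast were followed through an RNA immunoprecipitation sequencing (RIP-seq) experiment on 3 mRNA decay factors, with the reads counted on whole mRNAs and on 3 segments of equal length (5′, middle and 3′). Of the 8 mRNAs of the group, *YPT1* (YFL038C), *YPT6* (YLR262C), *YPT31* (YER031C), *VPS21* (YOR089C) and *YPT52* (YKR014C) were measured, 5 of the 4792 mRNAs among 5945 RNAs, and *YPT7*, *YPT32* and *YPT53* were not analysed here. The group was chosen by *YPT6*, whose 3′ segment was enriched further over its 5′ segment in the Puf5 IP, relative to a mock IP, than in any other mRNA that averaged 50 counts or more and whose 3′ to 5′ ratios in the Puf5 and mock libraries did not overlap (rank 3 of 4158 mRNAs without those limits). The choice used the *YPT6* counts of both the Puf5 and the mock libraries, so every value of *YPT6* from either is a description without a test. The other 4 mRNAs, and *YPT6* where neither IP enters, carry the tests.

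RNA was sequenced from 3 immunoprecipitates each of cells with myc-tagged Ccr4 (Ccr4 IP), Dhh1 (Dhh1 IP) or Puf5 (Puf5 IP), from 3 mock immunoprecipitates of untagged cells (UT IP) and from 2 inputs of untagged cells (UT input). Every culture was of the haploid strain BY4741, grown at 30° and cross-linked with formaldehyde, and all IPs used the anti-myc antibody. The study's methods describe biological replicates. Each tag was carried by 1 protein, and no input of tagged cells was used here, so a larger bound share of an mRNA and a larger amount of that mRNA in the tagged cells cannot be told apart.

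Rab GTPases are small switch proteins that sit on membranes in their GTP form and recruit the tethers and motors that move and dock vesicles. A guanine nucleotide exchange factor (GEF) turns a Rab on, a GTPase-activating protein (GAP) turns it off, and GDI takes the prenylated protein off the membrane. In yeast, Ypt1 acts between the endoplasmic reticulum and the Golgi and in autophagy, and Ypt31 acts with Ypt32 in exit from the late Golgi. Ypt6 acts in transport from endosomes to the Golgi, Vps21, Ypt52 and Ypt53 are the Rab5-type proteins of the endosome, and Ypt7 acts in fusion at the vacuole. Ccr4 is the main deadenylase of the Ccr4-Not complex, Dhh1 is a DEAD-box helicase of decapping and translational repression, and Puf5 is a Pumilio-family protein known to bind 3′ untranslated regions.

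The libraries held between 20376517 and 23943342 counts, of which rRNA took from 95.1% to 97.4%. The mRNAs made up a mean of 3.70% of the counts with Ccr4, 3.43% with Dhh1, 3.07% with Puf5, 2.18% in the UT IP and 2.66% in the UT input. Enrichments over the UT IP relative to all counts were shifted upward for most mRNAs, with a median log2 of 1.24 (Ccr4), 0.94 (Dhh1) and 0.61 (Puf5). With mRNA totals as library sizes, the medians were 0.49, 0.30 and 0.13. Reads of all mRNAs together also lay further 3′ in the factor IPs. The 3′ segment took 37.1% to 39.5% of them with Ccr4, 35.5% to 35.6% with Dhh1 and 37.7% to 43.5% with Puf5, against 29.0% to 30.7% in the UT IP and 33.8% to 35.2% in the UT input. The receptor gene *STE2*, a marker of the labelled mating type, had from 259 to 679 counts, while of the auxotrophic marker genes of the strain *URA3*, *LEU2* and *MET17* had at most 18 and *HIS3* had from 14 to 108.

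The 5 mRNAs were all among the more abundant ones in the UT input, between the 78.3 and 93.4 percentile of mRNAs. Their coding sequences were similar in length, from 621 to 705 bases. As CPM (counts scaled to all counts of the library) per kilobase of coding length, the input levels were 10.2 ± 0.75 for *YPT52*, 10.2 ± 0.73 for *YPT1*, 6.22 ± 0.84 for *YPT31*, 4.38 ± 0.28 for *VPS21* and 3.59 ± 1.55 for *YPT6* (SD, n = 2), against a median of 1.51 over 4791 mRNAs. *YPT52* and *YPT1* did not differ beyond their spread, and neither did *VPS21* and *YPT6*: the higher *YPT6* library, at 4.69, lay above both *VPS21* libraries, at 4.19 and 4.58.

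**Figure D1:**
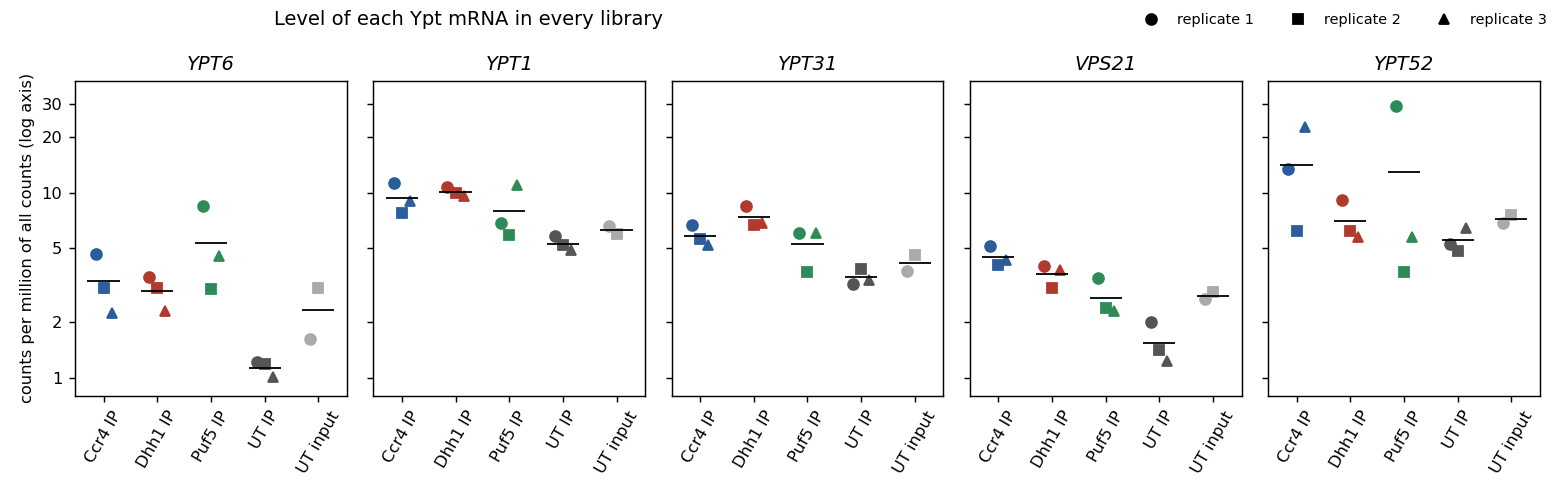
Level of each Ypt mRNA in every library, as CPM on a log axis. Points are libraries, their shape gives the replicate and bars are group means. *YPT6* lay between 3.01 and 8.42 CPM in the Puf5 IP and between 1.01 and 1.21 CPM in the UT IP, and *YPT52* reached 29.3 CPM in 1 Puf5 library.

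*YPT6* was, as a description, higher with all 3 factors than in the mock IP. Its counts were 107, 66 and 50 with Ccr4, 80, 67 and 47 with Dhh1 and 192, 66 and 107 with Puf5, against 29, 26 and 23 in the UT IP. Every library of the 3 factors lay above every UT IP library, whereas the 2 UT input libraries, with 33 and 65 counts, lay above the UT IP and overlapped the factor IPs. The enrichment over the UT IP was 2.86-fold for Ccr4 (log2 1.51 ± 0.35 SE), 2.54-fold for Dhh1 (log2 1.35 ± 0.35 SE) and 4.55-fold for Puf5 (log2 2.19 ± 0.34 SE). Those log2 values stood 0.28, 0.40 and 1.58 above the median of all mRNAs. Over the UT input, which the choice did not use, *YPT6* stood at -0.29 relative to the mRNA median with Ccr4 and at -0.19 with Dhh1.

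*VPS21*, an endosomal Rab5-type GTPase that is turned on by the GEF Vps9, was enriched over the UT IP with Ccr4 and with Dhh1. It had 118, 88 and 96 counts with Ccr4, 92, 67 and 78 with Dhh1 and 79, 52 and 54 with Puf5. The UT IP held 48, 31 and 28, and the UT input held 54 and 62. No factor library overlapped the UT IP. The log2 was 1.51 ± 0.27 (SE) for Ccr4 (edgeR adjusted p = 1.99e-05) and 1.20 ± 0.27 (SE) for Dhh1 (edgeR adjusted p = 5.2e-04), while the 0.79 ± 0.28 (SE) for Puf5 did not pass the call (edgeR adjusted p = 0.0227). The call required an FDR under 1% and a log2 over 1, the 2-fold cutoff of the study's methods. Over the UT input the *VPS21* log2 was 0.69 ± 0.29 for Ccr4 (SE, edgeR adjusted p = 0.0455) and 0.38 ± 0.29 for Dhh1 (SE, edgeR adjusted p = 0.318). Relative to the mRNA medians, those values stood at -0.10 and -0.14.

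*YPT31*, which acts at the late Golgi, passed the call with Dhh1 only, and *YPT1*, which acts earlier in the secretory pathway, passed it with none of the 3 factors. *YPT31* had 154, 121 and 116 counts with Ccr4, 193, 147 and 141 with Dhh1 and 138, 82 and 142 with Puf5, against 77, 85 and 77 in the UT IP. Its Dhh1 enrichment was 2.09-fold (log2 1.06 ± 0.22 SE, edgeR adjusted p = 2.76e-04). *YPT1* had 257, 167 and 200 counts with Ccr4, 243, 220 and 196 with Dhh1 and 157, 130 and 259 with Puf5, against 139, 114 and 111 in the UT IP. Its log2 values of 0.81 ± 0.22 for Ccr4 and 0.92 ± 0.22 for Dhh1 (SE) had edgeR adjusted p-values of 0.00152 and 7.71e-04 but stayed under 2-fold. Relative to the mRNA median, *YPT1* was 0.43 lower with Ccr4 and 0.02 lower with Dhh1. The difference between Ccr4 and Dhh1 was not called for *YPT31*, with a log2 of -0.33 ± 0.22 (SE, edgeR adjusted p = 0.309).

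*YPT52*, the second endosomal Rab measured, had, of the 5, the largest gap between the highest and the next library of each factor, at 1.70-fold in CPM with Ccr4, 1.46-fold with Dhh1 and 5.05-fold with Puf5. It had 306, 134 and 504 counts with Ccr4, 207, 137 and 118 with Dhh1 and 667, 82 and 136 with Puf5, against 127, 106 and 146 in the UT IP. All 3 factor groups overlapped the UT IP. The Ccr4 enrichment passed the call narrowly (log2 1.34 ± 0.46 SE, edgeR adjusted p = 0.00932). It lost the call without Ccr4 replicate 1 or 3 or without any 1 of the UT IP libraries, and the log2 was 0.82 without Ccr4 replicate 3 (edgeR adjusted p = 0.103). With Puf5 the log2 was 1.22 ± 0.46 (SE, edgeR adjusted p = 0.034), and it became -0.21 without Puf5 replicate 1. The 5.05-fold gap of that library was larger than in 99.9% of 2701 mRNAs that averaged 50 counts or more, for which the median of this ratio was 1.13.

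Counted together without *YPT6*, 2 of 4 mRNAs were called with Ccr4 (*VPS21* and *YPT52*), where 57.8% of the 4921 RNAs tested were called. With Dhh1, 2 of 4 were called (*YPT31* and *VPS21*), against 37.4% of RNAs. With Puf5, none of the 4 passed edgeR's call, against 17.6% of RNAs. All 4 had an unadjusted p under 0.05 in edgeR, and DESeq2 gave 0 calls and 0 at that unadjusted level. Libraries of the factor lay wholly above the UT IP for 3 of the 4 with Ccr4 (77.9% of RNAs), 3 of 4 with Dhh1 (74.5%) and 2 of 4 with Puf5 (49.1%). These shares were near the background. These comparisons share the UT IP libraries. Scaling decided the calls: with TMM factors, with mRNA totals as library sizes or with DESeq2, none of the 4 passed with Ccr4 or Dhh1. In that order, 5.63%, 15.6% and 5.67% of all RNAs were then called with Ccr4, and 1.14%, 3.19% and 1.40% with Dhh1. TMM factors moved the median log2 of mRNAs to 0.13 with Ccr4 and 0.04 with Dhh1. With TMM factors *YPT6* and *VPS21* kept log2 values above 0 with Ccr4 (0.38 and 0.39) and with Dhh1 (0.44 and 0.29), while *YPT1* and *YPT31* turned negative with Ccr4 (-0.33 and -0.40).

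**Figure D2:**
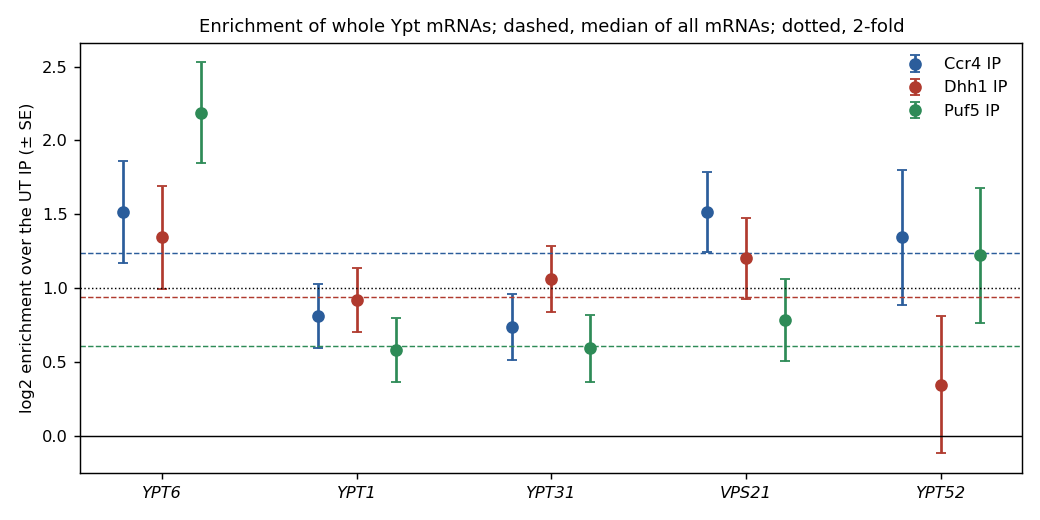
Log2 enrichment of each whole Ypt mRNA over the UT IP, with SE bars, from the fit over all RNAs. Dashed lines give the median of all mRNAs for each factor (1.24 Ccr4, 0.94 Dhh1, 0.61 Puf5) and the dotted line 2-fold. *YPT6* stood at 2.19 in the Puf5 IP, the IP whose read positions it was chosen by, and *YPT1* and *YPT31* lay below the median with Ccr4.

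Relative to all counts, the mock IP lay below the input for all 5 mRNAs, of which *YPT1*, *YPT31* and *YPT52* lay above it with TMM factors (log2 0.17, 0.17 and 0.04) and *YPT6* and *VPS21* still below (-0.59 and -0.40). Log2 values of the UT IP over the UT input were -1.01 ± 0.40 for *YPT6*, -0.82 ± 0.30 for *VPS21*, -0.38 ± 0.50 for *YPT52*, -0.26 ± 0.25 for *YPT31* and -0.25 ± 0.24 for *YPT1* (SE), around an mRNA median of -0.40. None of the 4 tested was called by edgeR, where 2.76% of RNAs were called. Only *VPS21* had an unadjusted p under 0.05 in edgeR, and DESeq2 called 0 with 0 at that level. Set against the UT input instead of the UT IP, no member was called by edgeR in the Ccr4 IP (23.3% of RNAs), the Dhh1 IP (2.72%) or the Puf5 IP (4.49%). At an unadjusted p under 0.05 there were 2 with Ccr4, 2 with Dhh1 and 0 with Puf5, and DESeq2 gave 0 in each. For *YPT6* the log2 over the UT input was 0.50 ± 0.38 for Ccr4 (SE, edgeR adjusted p = 0.251) and 0.33 ± 0.38 for Dhh1 (SE, edgeR adjusted p = 0.498), beside mRNA medians of 0.79 and 0.53. In the Puf5 IP it was 1.18 ± 0.37 (SE).

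Set directly against each other, the factor IPs gave no call for the members. Puf5 over Ccr4 gave *VPS21* a log2 of -0.73 ± 0.26 (SE, edgeR adjusted p = 0.0231), where 18.2% of RNAs were called in either direction. Puf5 over Dhh1 gave *YPT52* a log2 of 0.88 ± 0.45 (SE, edgeR adjusted p = 0.185), where 2.38% were called, and Ccr4 over Dhh1 gave it 1.00 ± 0.45 (SE, edgeR adjusted p = 0.134), where 3.54% were called. An unadjusted p under 0.05 was reached by *VPS21* in Puf5 over Ccr4, by *YPT31* in Puf5 over Dhh1 (log2 -0.47 ± 0.22 SE, edgeR adjusted p = 0.139) and by *YPT52* in Ccr4 over Dhh1. DESeq2 called 0 members in each, with 1, 0 and 1 at that level. Without Puf5 replicate 1, *YPT52* alone was called lower with Puf5 than with Ccr4. For *YPT6*, as a description, Puf5 stood above Ccr4 by a log2 of 0.67 and above Dhh1 by 0.84.

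The position of the reads along *YPT6* was the measure it was chosen by. In the Puf5 IP its 5′, middle and 3′ segments held 7, 25 and 160 counts in replicate 1, 10, 27 and 29 in replicate 2, and 20, 34 and 53 in replicate 3. In the UT IP they held 18, 4 and 7, then 12, 11 and 3, then 9, 12 and 2. The counts climbed toward the 3′ end in each Puf5 library, and the 3′ segment was the largest in none of the UT IP libraries.

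As a share, the 3′ segment of *YPT6* took 83.3% (95% Wilson interval 77.4% to 87.9%), 43.9% and 49.5% of the reads in the Puf5 IP, against 24.1% (12.2% to 42.1%), 11.5% and 8.70% in the UT IP and 21.2% and 27.7% in the UT input. The intervals cover counting error only. The difference between the 3′ and 5′ log2 enrichments over the UT IP, by which *YPT6* was chosen, was 3.86 ± 0.82 (SE), against a median of 0.61 for mRNAs. It was first among mRNAs that averaged 50 counts or more and whose 3′ to 5′ ratio was higher in every Puf5 library than in any UT IP library, ahead of *VHS1* at 3.78 and *BSP1* at 3.66. Without Puf5 replicate 1 it was 2.91. That replicate also had the highest 3′ share over all mRNAs, 43.5%.

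**Figure D3:**
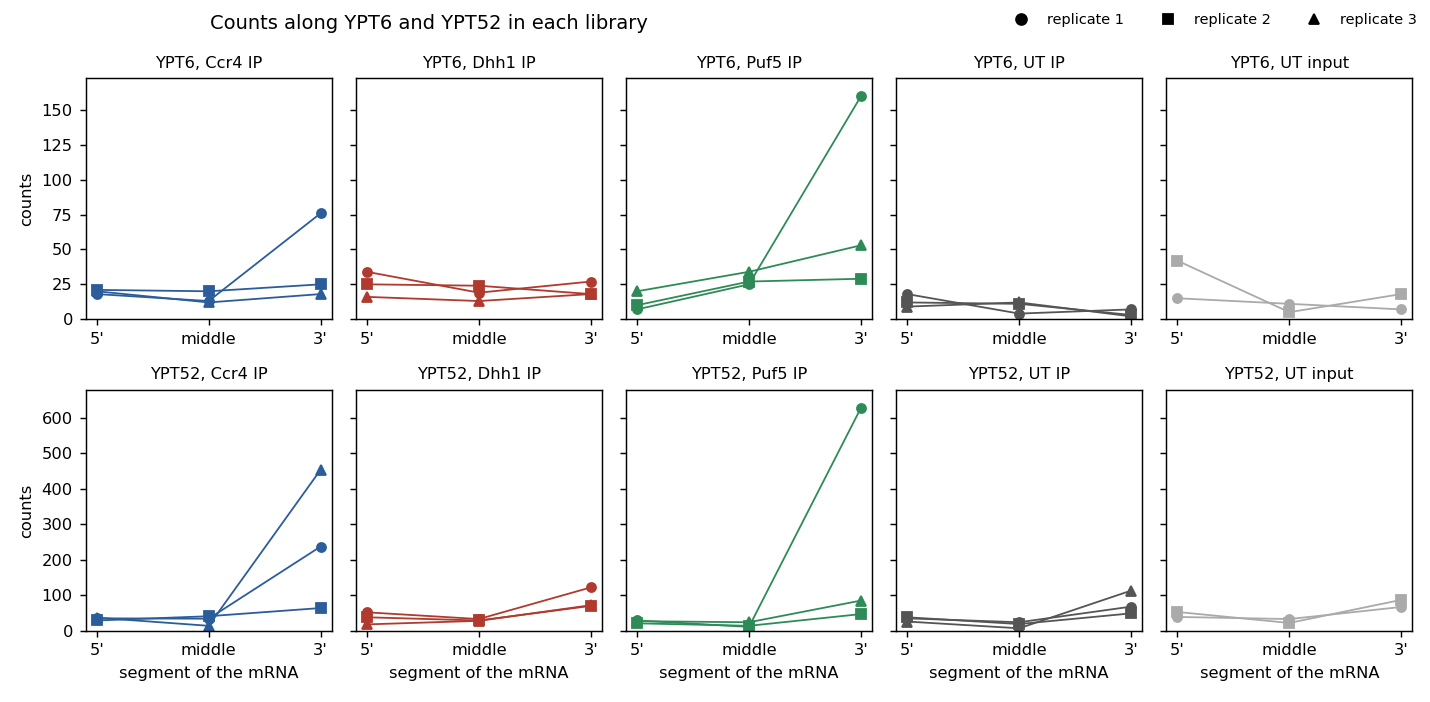
Counts in the 5′, middle and 3′ segments of *YPT6* (upper row) and *YPT52* (lower row) in each library, by group. Lines join the segments of 1 library and marker shape gives the replicate. Puf5 replicate 1 reached 160 counts at the 3′ end of *YPT6* and 627 at that of *YPT52*, while the 5′ and middle segments stayed low.

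Outside the Puf5 IP, the 3′ reads of *YPT6* were also more frequent than in the mock, whose low 3′ counts the choice had used. The 3′ segment held 76, 25 and 18 counts with Ccr4 and 27, 18 and 18 with Dhh1, against 7, 3 and 2 in the UT IP. Read from the 3′ segment alone, the enrichment was 8.28-fold for Ccr4 (log2 3.05 ± 0.70 SE) and 4.60-fold for Dhh1, which is a log2 of 1.63 and 1.06 above the mRNA medians of that segment. Without Ccr4 replicate 1 the Ccr4 log2 was 2.23. From the 5′ and middle segments together, the log2 was 0.67 ± 0.35 (SE) for Ccr4 and 1.02 ± 0.34 (SE) for Dhh1.

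The 3′ enrichment of *YPT6* over the UT IP exceeded the 5′ enrichment by 2.27 ± 0.81 (SE) with Ccr4 and 1.29 ± 0.82 (SE) with Dhh1, as descriptions. Leaving out single libraries moved the Ccr4 value between 1.56 (without Ccr4 replicate 1) and 2.68 (without Ccr4 replicate 3). The single library with most 3′ reads was Ccr4 replicate 1, with 71.0% in the 3′ segment (95% Wilson interval 61.8% to 78.8%), against 37.9% and 36.0% in the other Ccr4 libraries.

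**Figure D4:**
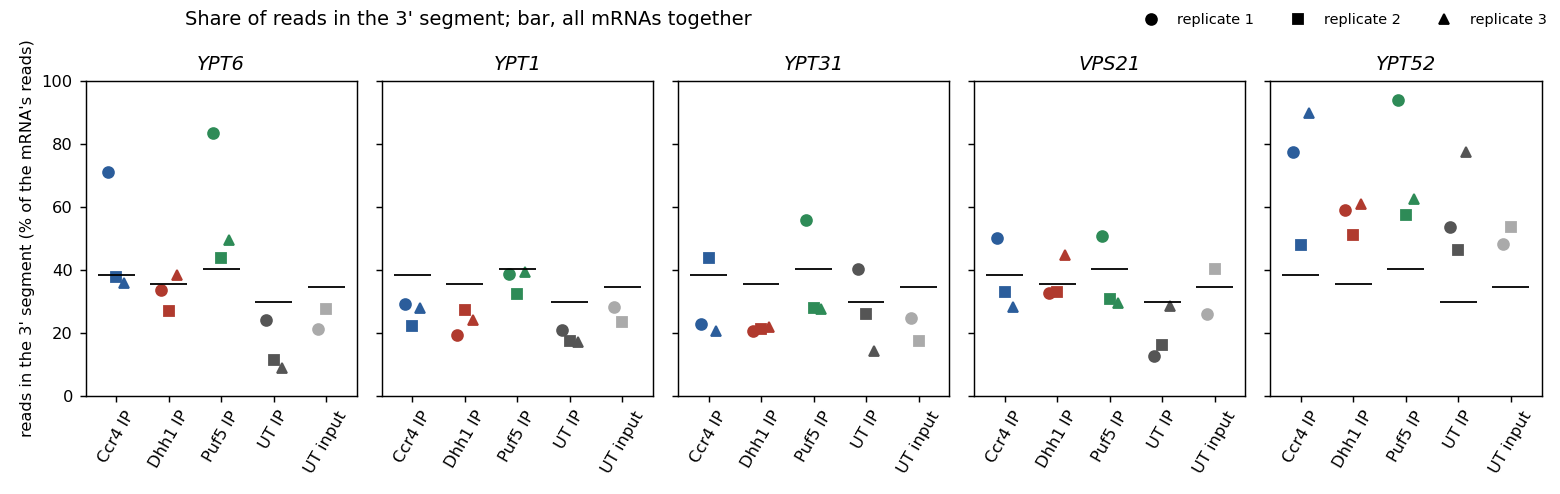
Share of each Ypt mRNA's reads in its 3′ segment (percent) in every library; bars give the share over all mRNAs together, averaged within the group. *YPT1* lay between 32.3% and 39.4% in the Puf5 IP and between 17.1% and 20.9% in the UT IP, and *YPT52* had a 3′ share of 46.2% or more in every library.

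*YPT1* was the 1 member whose reads moved toward the 3′ end in a test that its choice did not use. Its 3′ segment took 38.9%, 32.3% and 39.4% of its reads in the Puf5 IP, against 20.9%, 17.5% and 17.1% in the UT IP. The ratio of 3′ to 5′ counts was between 1.24 and 1.39 in the Puf5 libraries and between 0.34 and 0.58 in the UT IP, with no overlap, and between 0.59 and 0.95 in the UT input. The 3′ enrichment exceeded the 5′ enrichment by a log2 of 1.51 ± 0.36 (SE, edgeR adjusted p = 0.0048), 0.89 above the median of mRNAs. It was kept without any 1 library, between 1.30 and 1.65. With TMM factors for each segment, which removed the general 3′ shift of the mRNAs, it was 0.93 and no longer passed (edgeR adjusted p = 0.194). The same difference was 0.85 ± 0.36 for Ccr4 (SE, edgeR adjusted p = 0.16) and 0.32 ± 0.36 for Dhh1 (SE, edgeR adjusted p = 0.678).

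*VPS21*, *YPT52* and *YPT31* did not pass the test of 3′ against 5′ enrichment with any factor. *VPS21* had differences of 1.18 ± 0.64 with Ccr4, 1.32 ± 0.65 with Dhh1 and 1.09 ± 0.66 with Puf5 (SE). *YPT31* had -0.09 ± 0.57, -0.52 ± 0.56 and 1.00 ± 0.58 (SE) in the same order, and 1 UT IP library held more of its reads in the 3′ segment, 40.3%, than the other UT IP libraries, with 25.9% and 14.3%. Over the members without *YPT6*, 0 of 4 passed with Ccr4 (5.34% of mRNAs), 0 of 4 with Dhh1 (1.83%) and 1 of 4 with Puf5 (11.1%) in edgeR. At an unadjusted p under 0.05 there were 2 with Ccr4, 1 with Dhh1 and 2 with Puf5, and DESeq2 was not run on this test.

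Over the UT input, no member passed edgeR's test with Ccr4 (0.315% of mRNAs), Dhh1 (0.145%) or Puf5 (3.06%), where 2, 0 and 2 members had an unadjusted p under 0.05. *YPT1* then had a 3′ over 5′ difference of 0.80 ± 0.40 with Puf5 (SE, edgeR adjusted p = 0.332). *VPS21* had 0.34 ± 0.66 with Ccr4 (SE, edgeR adjusted p = 0.913) and 0.48 ± 0.67 with Dhh1 (SE, edgeR adjusted p = 0.949). *YPT6* had 1.87 ± 0.78 with Ccr4 (SE, edgeR adjusted p = 0.384), 0.89 ± 0.78 with Dhh1 (SE, edgeR adjusted p = 0.898) and, as a description, 3.46 ± 0.79 (SE) with Puf5.

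The 3′ segment of *YPT52* held more reads than either other segment in every library, the inputs included. The share was 77.5%, 47.8% and 89.9% with Ccr4, 58.9%, 51.1% and 61.0% with Dhh1 and 94.0%, 57.3% and 62.5% with Puf5, against 53.5%, 46.2% and 77.4% in the UT IP and 48.2% and 53.7% in the UT input. The high totals of 3 libraries lay in that segment alone: it held 627 counts in Puf5 replicate 1, 453 in Ccr4 replicate 3 and 237 in Ccr4 replicate 1. The 5′ and middle segments together held from 51 to 70 counts in the Ccr4 IP and from 35 to 51 in the Puf5 IP, against 33 to 59 in the UT IP. Their log2 over the UT IP was 0.38 ± 0.28 for Ccr4 and -0.23 ± 0.29 for Puf5 (SE), with edgeR adjusted p-values of 0.205 and 0.6. *PRY2*, the neighbouring gene on the other strand, had 205, 166 and 332 counts with Ccr4, 309, 219 and 202 with Dhh1 and 206, 188 and 175 with Puf5, against 148, 139 and 171 in the UT IP. The highest *PRY2* count was in Ccr4 replicate 3, which also had 504 counts of *YPT52*. Puf5 replicate 1, with 667 counts of *YPT52*, had 206 of *PRY2*, and Dhh1 replicate 1, with 207 of *YPT52*, had 309. How far reads of *PRY2* entered the *YPT52* counts was not tested.

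**Figure D5:**
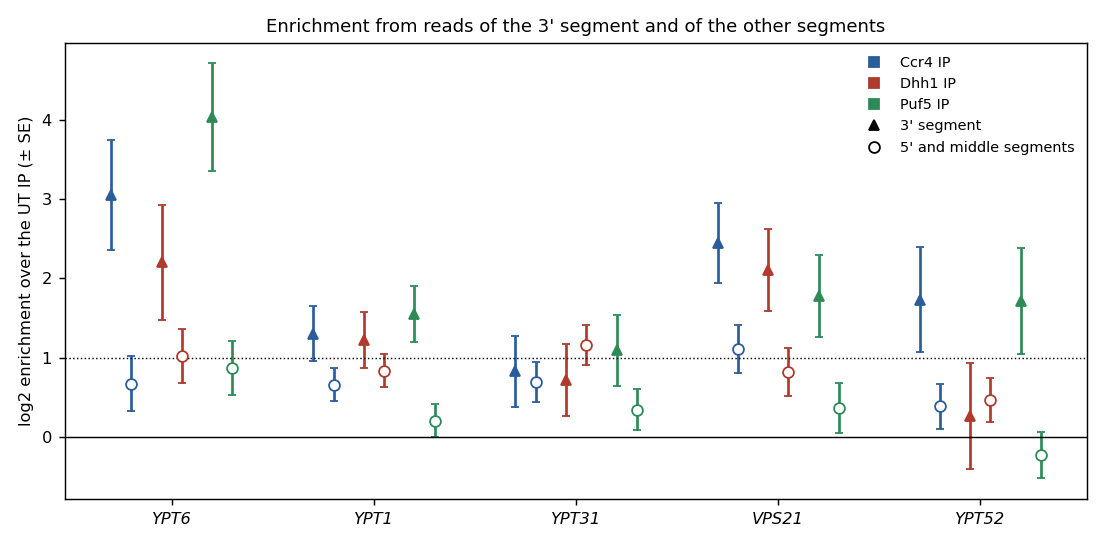
Log2 enrichment over the UT IP (SE bars) from reads of the 3′ segment (filled triangles) and of the 5′ and middle segments (open circles) for each Ypt mRNA and factor. The dotted line is 2-fold. *YPT6* reached 3.05 with Ccr4 and 4.03 with Puf5 from its 3′ reads, where the other segments gave 0.67 and 0.87, and *YPT31* with Dhh1 had the higher value from its 5′ and middle reads.

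Tested by segment, the calls fell in part on other members than for whole mRNAs. From the 3′ segment alone and without *YPT6*, *YPT1* and *VPS21* were called with Ccr4 (2 of 4, against 49.0% of mRNAs) and with Dhh1 (2 of 4, against 30.0%). Relative to the mRNA medians of that segment, *YPT1* stood at -0.12 with Ccr4 and 0.08 with Dhh1, and *VPS21* at 1.03 and 0.97. The fits of single segments were run with library sizes from all counts only, so how far scaling decided these calls was not tested. With Puf5, *YPT1* at 1.55 ± 0.35 (SE, edgeR adjusted p = 0.00147) and *VPS21* at 1.77 ± 0.52 (SE, edgeR adjusted p = 0.00616) were called, 2 of 4 against 21.5%. Without Puf5 replicate 1 the *VPS21* value was 1.22 (edgeR adjusted p = 0.0686), and it also lost the call without any 1 UT IP library, at 1.67 to 1.95. Without Puf5 replicate 3 the *YPT1* value was 1.18 and was not called (edgeR adjusted p = 0.0186). Over 6 fits without 1 library, the call of *VPS21* was kept in 6 with Ccr4 and in 6 with Dhh1, and that of *YPT1* in 3 with Ccr4 (log2 1.07 to 1.51) and 1 with Dhh1 (1.10 to 1.39). The *VPS21* calls rest on low mock counts: its 3′ segment held 6, 5 and 8 in the UT IP, against 14 and 25 in the UT input.

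From the 5′ and middle segments, only *VPS21* was called with Ccr4, at 1.11 ± 0.30 (SE, edgeR adjusted p = 0.00134), where 45.8% of mRNAs were called. Only *YPT31* was called with Dhh1, at 1.16 ± 0.25 (SE, edgeR adjusted p = 3.09e-04), where 25.3% were. The *VPS21* call was lost without UT IP replicate 3 (0.91) and the *YPT31* call without UT IP replicate 1 (0.99). With Puf5 none of the 4 was called by edgeR (8.94% of mRNAs), and 0 had an unadjusted p under 0.05. In the Puf5 IP the 5′ and middle log2 of *YPT6* was 0.87 ± 0.34 (SE), against 4.03 ± 0.68 (SE) in its 3′ segment, or 3.07 without Puf5 replicate 1. DESeq2 was not run on the segments.

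The gene next to *YPT6* on the other strand, *LCB5*, a sphingoid base kinase gene, had 130, 84 and 83 counts with Ccr4, 85, 41 and 48 with Dhh1 and 45, 38 and 72 with Puf5, against 23, 25 and 37 in the UT IP and 29 and 280 in the UT input. Among the IP libraries its highest count was 130, in Ccr4 replicate 1, and its highest count of all was 280, in UT input replicate 2. The input library with 280 counts of *LCB5* was also the one with more *YPT6*, 65 counts. How far reads of neighbours entered the *YPT6* counts was not tested, and the study's methods state the use of strand for counts over untranslated and coding regions but not for counts over whole mRNAs or their 3 segments. *VPS63*, an open reading frame annotated over *YPT6* on the same strand, cannot be told apart from it in these counts.

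The mRNAs whose 3′ share followed that of *YPT6* most closely over the 14 libraries, among 2700 that averaged 50 counts or more, were *MRH1*, a plasma membrane protein gene, with Pearson's r = 0.943, *GLN1*, the glutamine synthetase gene, with r = 0.928, and *YJL213W* with r = 0.917. This is a description, since the libraries share their groups. *MRH1* had 48.2% to 79.3% of its reads at the 3′ end with Puf5, against 22.9% to 29.0% in the UT IP. Among the Ypt mRNAs, r was 0.751 for *YPT1* (rank 145), 0.741 for *VPS21* (rank 171), 0.59 for *YPT52* (rank 552) and 0.537 for *YPT31* (rank 715).

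The partners of the Ypt proteins were described from lists of other Rabs, GEFs, GAPs, prenylation and membrane factors, and effectors and tethers. Of their 61 tested mRNAs, 48 were called higher with Ccr4 (78.7%), 31 with Dhh1 (50.8%) and 8 with Puf5 (13.1%), beside the 57.8%, 37.4% and 17.6% of all RNAs, and none was called lower. With TMM factors 2, 0 and 1 of the 61 were called higher with Ccr4, Dhh1 and Puf5 (5.63%, 1.14% and 4.45% of RNAs). With mRNA totals they were 6, 0 and 1 (15.6%, 3.19% and 5.66%), and with DESeq2 3, 0 and 1 (5.67%, 1.40% and 4.88%).

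Among the regulators, all 9 GAPs were called with Ccr4 (median log2 1.98), 5 with Dhh1 (1.14) and 3 with Puf5 (0.87). Of all RNAs, 57.8%, 37.4% and 17.6% were called. With TMM factors, mRNA totals and DESeq2, 2, 4 and 2 of the 9 GAPs were called with Ccr4 (5.63%, 15.6% and 5.67% of RNAs). None was called with Dhh1 (1.14% to 3.19%) or Puf5 (4.45% to 5.66%). *MSB4*, a GAP gene for Sec4, was the highest with Ccr4, with 93 to 190 counts in the Ccr4 IP against 23 to 26 in the UT IP (log2 2.41 ± 0.29 SE, edgeR adjusted p = 9.44e-08), and it was also called with TMM factors (log2 1.28), mRNA totals (1.65) and DESeq2 (1.25). Of 17 tested GEF and TRAPP subunit mRNAs, 14 were called with Ccr4 (median log2 1.33), 12 with Dhh1 (1.22) and 4 with Puf5 (0.85). Under TMM factors, mRNA totals or DESeq2, 0 of these 17 were called with any factor, where 1.14% to 15.6% of RNAs were called. *VPS9*, the GEF gene for Vps21, was the lowest of them with Ccr4 (log2 0.68 ± 0.30 SE, edgeR adjusted p = 0.0376, and -0.44 with TMM factors). *RIC1*, a subunit gene of the Ypt6 GEF, was the lowest with Dhh1 (log2 0.57 ± 0.29 SE, edgeR adjusted p = 0.0717, and -0.33 with TMM factors).

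Of 23 tested effector and tether mRNAs, 18 were called with Ccr4 (median log2 1.36), 9 with Dhh1 (0.98) and 0 with Puf5 (0.33). Of all RNAs, 57.8%, 37.4% and 17.6% were called. With TMM factors, mRNA totals and DESeq2, 0, 1 and 1 of the 23 were called with Ccr4 (5.63%, 15.6% and 5.67% of RNAs). None was called with Dhh1 (1.14% to 3.19%) or Puf5 (4.45% to 5.66%). *COG2*, a subunit gene of the Golgi tether COG, was the highest with each factor, at 2.66, 2.10 and 1.43, with 5 to 10 counts in the UT IP. With Ccr4 it was also called with mRNA totals and DESeq2 but not with TMM factors (1.65, edgeR adjusted p = 0.0111). The list's median with Puf5 turned negative with TMM factors (-0.24), mRNA totals (-0.14) and DESeq2 (-0.27). Of the 9 prenylation, escort, GDI and membrane factor mRNAs, 5 were called with Ccr4 (1.05), 4 with Dhh1 (1.00) and 0 with Puf5 (0.52). Their median was -0.07 with Ccr4 and -0.05 with Puf5 under TMM factors. Under TMM factors, mRNA totals or DESeq2, 0 of these 9 were called with any factor, where 1.14% to 15.6% of RNAs were called.

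The other Rab mRNAs differed widely with Puf5. *YPT11*, a Rab-like gene for inheritance of mitochondria, had from 52 to 60 counts in the Puf5 IP against 10 to 16 in the UT IP (log2 2.03 ± 0.34 SE, edgeR adjusted p = 1.98e-05). It was called under each of the 3 other scalings, with log2 values of 1.49 with TMM factors, 1.58 with mRNA totals and a DESeq2 adjusted p of 2.32e-04. *SEC4*, the Rab gene of secretory vesicles, had from 75 to 114 counts in the Puf5 IP against 78 to 126 in the UT IP (log2 -0.03 ± 0.22 SE, edgeR adjusted p = 0.91, and -0.63 with TMM factors). With Ccr4 and Dhh1, 2 and 1 of the 3 other Rabs were called, beside 57.8% and 37.4% of RNAs. Under TMM factors, mRNA totals and DESeq2 the number was 0, 1 and 0 with Ccr4 (5.63%, 15.6% and 5.67% of RNAs). It was 0 each with Dhh1 (1.14%, 3.19% and 1.40%). The median log2 of the 3 was -0.14 with Puf5 and -0.17 with Dhh1 under TMM factors.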

How the data were processed

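RIP-seq libraries were made by the authors from RNA fragments and sequenced on SOLiD. Per the study's methods, the authors mapped the reads to the yeast reference genome sg7 with SHRiMP after trimming, and counted them between published transcript ends. The deposited counts are raw counts per RNA and per 3 segments of its length (5′, middle and 3′), without normalization, and RNA types are those the authors gave. The authors also deposited enrichment values of their own comparisons, which were not used. Gene symbols came from the RefSeq assembly R64 (4791 of 4792 mRNAs matched). Its coordinates belong to another build and are not given, and sequences and the planned motif search were not used here.

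The test was edgeR's (4.0.16, R 4.3.3) quasi-likelihood fit, with the group as the only term over the 12 IP libraries (all 14 where the input is the reference), library sizes from all counts, a prior count of 1 for log2 values and Benjamini-Hochberg adjustment over all RNAs tested. Segments were tested for mRNAs averaging 5 counts or more. The 3′ against 5′ test was the interaction of segment with group, blocked by library. Standard errors are the absolute log2 estimated without the prior count, divided by the square root of F. Levels per kilobase used annotated coding lengths, not transcript lengths. Both steps were run on simulated data that held no general shift of the mRNAs or of their reads toward the 3′ end. The whole-RNA step recovered 99.5% of 200 raised RNAs with 0 false calls. The 3′ against 5′ step recovered 92.9% of 198 with 12 false calls. The simulated RNAs were raised by a larger log2 than any tested member had, and segments were drawn with the spread of whole RNAs. These shares therefore do not measure the power of the tests for the members. How the steps behave under such general shifts was not tested. DESeq2 1.42.0 and limma 3.58.1 ran in R; Python 3.11.15, pandas 2.3.3, numpy 2.4.6, scipy 1.17.1 and matplotlib 3.10.9 did the rest.

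The members, the partner lists and the rule for named genes (all members, the 3 mRNAs most like *YPT6*, and the highest and lowest of each partner list) were chosen with earlier results of these data known. Fits of single segments were added after the data were seen. *YPT6* was given no p wherever the Puf5 IP or the UT IP, which chose it, entered; this is stricter than first planned, which withheld the p for the Puf5 IP alone. Alternatives covered scaling, filters, cutoffs, prior count, replicate number and leaving out each library.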

Additional observations from a re-analysis of the deposited data

How the results depend on the processing

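With TMM factors, mRNA totals or DESeq2, the number of members called with Ccr4 and with Dhh1 was 0, 0 and 0, against 2 each (all counts leave out *YPT6* where the Puf5 IP or UT IP enters). Of all RNAs, 5.63%, 15.6% and 5.67% were then called with Ccr4, and 1.14%, 3.19% and 1.40% with Dhh1. Without a log2 cutoff 4 were called with Ccr4, where 68.5% of RNAs were called. From the 5′ and middle segments, added after seeing the data, 1 was called with Ccr4 (45.8% of mRNAs) and 1 with Dhh1 (25.3%). With Puf5, an FDR of 5% gave 1 (22.7% of RNAs) and the 3′ segment alone gave 2 (21.5% of mRNAs), against 0. Leaving out single libraries gave from 1 to 2 members with Ccr4 (1 without Ccr4 replicate 1 or 3 or any 1 UT IP library), from 1 to 2 with Dhh1 (1 without Dhh1 replicate 1), from 0 to 1 with Puf5 (1 without Puf5 replicate 2) and from 0 to 1 for Puf5 over Ccr4 (1 without Puf5 replicate 1). Of all RNAs, those fits called 48.2% to 59.0% with Ccr4 and 26.1% to 36.3% with Dhh1. With Puf5 they called 12.6% to 18.6%, and for Puf5 over Ccr4 12.1% to 19.8%. Without Dhh1 replicate 1 the *YPT31* log2 was 0.95.

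For 3′ against 5′ enrichment, leaving out single libraries gave from 1 to 2 members with Puf5 and, over the input, from 0 to 1 with Puf5 (the higher number without Puf5 replicate 2 in both). Of mRNAs, those fits called 7.03% to 10.6% and, over the input, 0.725% to 2.63%. TMM factors per segment gave 0 with Puf5 (2.43% of mRNAs), against 1. Replicate numbers did not pair the IP libraries: deviations of same-numbered IP libraries correlated between -0.06 and 0.05 in 18 pairs. Same-numbered pairs of an IP with a UT input, not among those, lay between -0.04 (Dhh1 replicate 1) and 0.14 (UT IP replicate 1). The fit with the replicate number as a block gave 2 members with Ccr4, 2 with Dhh1 and 0 with Puf5 for whole mRNAs and 0, 0 and 1 for 3′ against 5′ enrichment, the same counts as without it.

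Signs of some log2 values turned. With TMM factors and with DESeq2, *YPT1* had -0.33 and -0.38 with Ccr4 and -0.011 and -0.041 with Puf5, *YPT31* had -0.40 and -0.45 with Ccr4 and -0.0048 and -0.033 with Puf5, and *YPT52* had -0.58 and -0.60 with Dhh1. DESeq2 gave *YPT1* -0.010 with Dhh1. With mRNA totals, *YPT31* had -0.022 with Ccr4 and *YPT52* -0.31 with Dhh1. Median log2 values of all mRNAs were then 0.13, 0.04 and 0.03 with TMM factors and 0.49, 0.30 and 0.13 with mRNA totals, for Ccr4, Dhh1 and Puf5. TMM factors per segment gave 3′ over 5′ differences with Dhh1 of -0.026 for *YPT1* and -0.21 for *YPT52*. Leaving out single libraries, *YPT52* with Puf5 ranged from -0.21 to 1.66. Likewise the 3′ over 5′ difference ranged from -0.66 to 0.58 for *YPT31* with Ccr4, from -1.09 to 0.15 for *YPT31* with Dhh1 and from -0.20 to 0.65 for *YPT52* with Dhh1. The cause of these changes was not tested. The UT IP held 23 to 29 counts of *YPT6* and 28 to 48 of *VPS21*, which limits the precision of their segments.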
